A study of Rattus norvegicus with 2 samples.

Results

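The genes described here form the acid pump of the lysosome and the machinery on its surface that reads nutrients. They were chosen by name, as every transcript cluster that carries a single gene symbol beginning with Atp6v or naming Atp6ap1, Atp6ap2, Tfeb, Tfe3, Mcoln1, Flcn, Fnip1, a Lamtor or Rrag gene, Slc38a9, Mtor, Rptor, Rheb, Tsc1 or Tsc2. This rule found 44 genes with 1 cluster each among the 23188 clusters of the array, and 24 of them belong to the V-ATPase. A transcript cluster is the set of probes by which the array reads a gene.

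The study compared C6 TAZ cells, in which tafazzin (TAZ) was knocked out by CRISPR-Cas9, with wild-type C6 cells, an established rat glioma line. Tafazzin is a mitochondrial acyltransferase that remodels the phospholipid cardiolipin. Both cell types were grown in DMEM with fetal bovine serum, penicillin and streptomycin. Total RNA pooled from 3 independent cultures of each was hybridised to 1 Affymetrix Clariom S rat array, so that there are 2 arrays, 1 per condition. Neither the labels nor the methods say whether the C6 TAZ cells on the array came from a single clone. The spread between cultures lies inside each pool and was not measured, and all differences below are those between 2 arrays, without a test.

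The V-ATPase is a rotary proton pump. Its cytosolic V1 sector hydrolyses ATP and turns a rotor, and its membrane-embedded V0 sector carries protons into the lysosome, which keeps the interior acidic and the hydrolases active. On the outer face of the same membrane the Ragulator complex anchors the Rag GTPases, which bring the kinase complex mTORC1 to the lysosome when amino acids are plentiful. There mTORC1 phosphorylates TFEB and TFE3 and holds them in the cytosol, and when it is inactive these transcription factors enter the nucleus and switch on genes of the lysosome, among them genes of the pump itself.

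The log2 signals were deposited in 2 forms whose condition names are exchanged. Every cluster (100%) had the same pair of values in both forms once the names were exchanged, against 1.16% as named. The workbook form is used, because the study's own text prints signals of single genes under the workbook's names, and because the genes that it also measured by RT-qPCR, a separate method, run in the direction these names give. The workbook names are therefore likely the right ones, although the other names would turn the sign of every difference. Tafazzin itself had a log2 signal of 9.84 in C6 TAZ and 10.34 in C6, a difference of −0.50. Its signal does not settle the names, since the edit need not remove the probed part of the transcript.

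Signals on the 2 arrays ran between 2.60 and 18.97, with a median of 6.40 in C6 TAZ and 6.39 in C6. As a scale for dim signals, 1321 clusters of odorant and vomeronasal receptors, which belong to the nose, were taken, and 95% of them had a mean signal under 5.88. Differences of these receptor clusters had an SD of 0.48 over clusters, and those of 131 cytosolic ribosomal protein clusters an SD of 0.21 around a median of −0.03. The glial and glioma markers Vim (18.77 in C6 TAZ and 18.72 in C6), Nes (13.08 and 13.22), Sox2 (13.63 and 13.24) and Cd44 (15.94 and 15.16) were bright on both arrays. S100b lay at 10.40 in C6 TAZ and 9.82 in C6, Gfap was dim (6.38 and 5.73) and Slc1a3 lay under 5.88 on both. Of these 7 markers 6 were higher in C6 TAZ, 3 of them by 1.5-fold, where 9.87% of all clusters were. Their median difference was 0.58, the same direction as that of the genes described here. The part of these markers in the results was not tested. Of 5 neuronal markers, 2 lay under 5.88 on both arrays. Map2 was bright (13.30 in C6 TAZ and 13.39 in C6), and Snap25 (9.42 and 9.65) and Tubb3 (7.70 and 8.06) also lay above 5.88. The median difference over the 5 was −0.09. Among 10 markers of macrophages and microglia, 8 lay under 5.88 on both arrays, and the summed linear signal of the 10 was 561 in C6 TAZ and 316 in C6, mostly through Cd68 (8.42 and 6.30), whose product also resides in the lysosome. The other marker not under 5.88 on both arrays, P2ry12, had the opposite sign, with 5.43 in C6 TAZ and 6.15 in C6 (−0.72). The part of Cd68-bearing cells in the results was not tested. All 4 osteoclast markers and all 3 markers of kidney intercalated cells, cell types known for V-ATPase isoforms of their own, lay under 5.88 on both arrays.

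Most genes of the acid pump and its control were brighter on the array of C6 TAZ cells, and a few stood far above the others. Of the 44 genes, 33 had a higher and 11 a lower signal in C6 TAZ, against 11432 and 11487 of the 23188 clusters. The log2 differences of the 44 genes, C6 TAZ minus C6, had a median of 0.30 (SD over genes 0.54, quartiles 0.01 and 0.61), against a median of 0.00 over all clusters. At least 2-fold higher in C6 TAZ were 4 genes (9.09%), namely Rragd, Atp6v0b, Flcn and Atp6v1c1, where 2.34% of all clusters were. None of the 44 was lower by 2-fold, where 2.1% of all clusters were. At a threshold of 1.5-fold, 13 genes (29.5%) were higher, against 9.87% of all clusters, and 2 (4.55%) were lower, against 9.05%. From bulk RNA of a culture, a change in every cell cannot be told apart from a change in a fraction of the cells.

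The counts of higher genes did not rest on dim clusters, whereas 1 of the 2 genes lower by 1.5-fold, Atp6v1g3, was dim. Restricted to a mean log2 signal of at least 8, the counts over 39 of the genes were 4 (10.3%) higher by 2-fold and 0 lower, against 2.75% and 2.31% of the 9322 clusters of that brightness. At 1.5-fold they were 13 (33.3%) higher and 1 (2.56%) lower, against 9.91% and 8.73% of those clusters. The 39 genes had a median difference of 0.36, and the bright clusters as a whole −0.01.

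**Figure D1:**
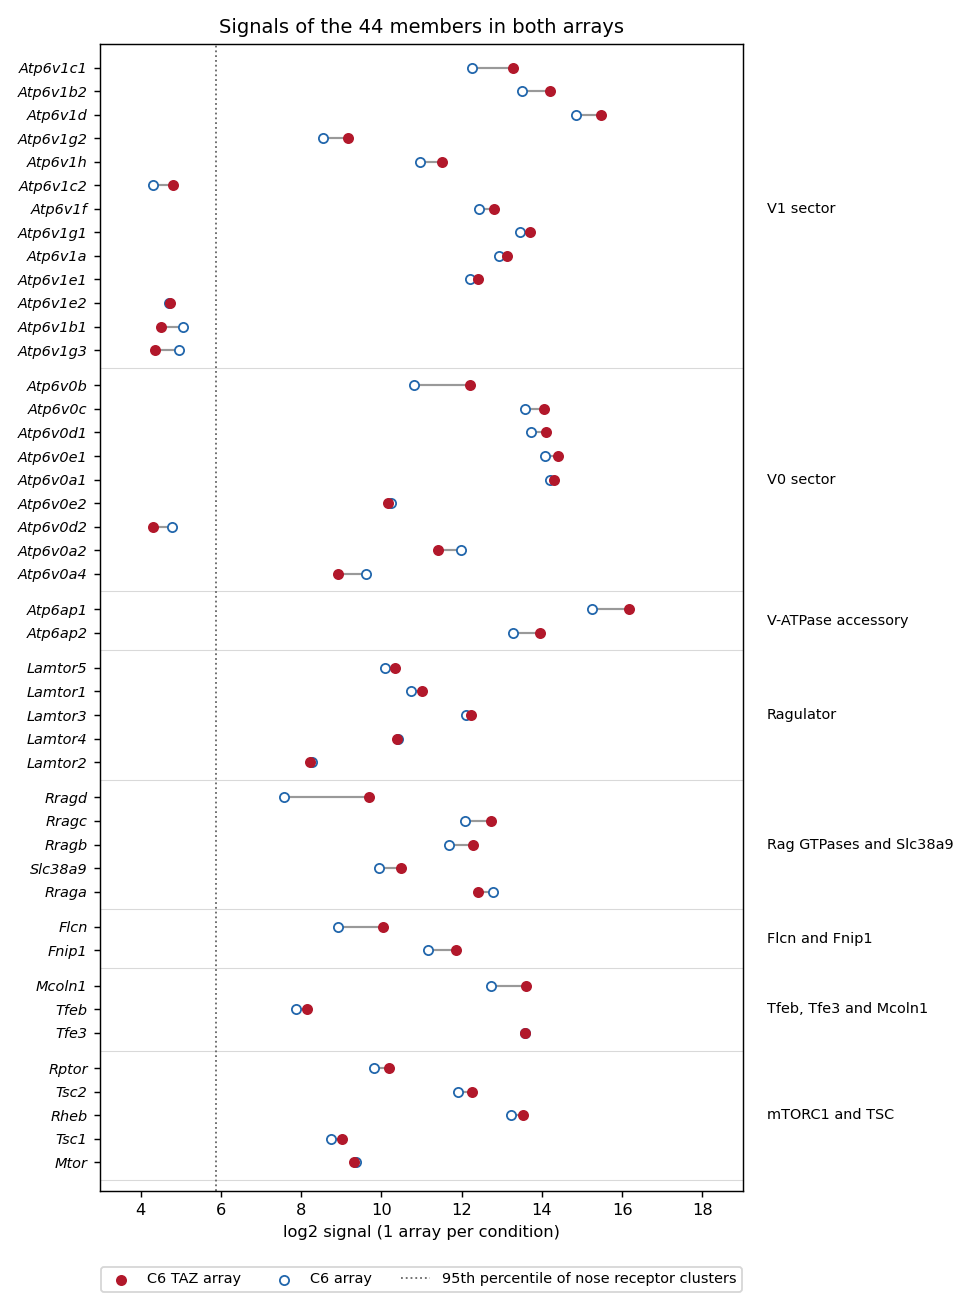
Log2 signal (x axis) of each of the 44 genes (y axis, grouped by role) in the C6 TAZ array (filled red) and the C6 array (open blue), 1 array per condition, with a dotted line at 5.88, the level under which 95% of nose receptor clusters lie. Red lies to the right of blue for 33 genes, with the widest gap for Rragd, and 5 V-ATPase genes lie left of the dotted line on both arrays.

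**Figure D2:**
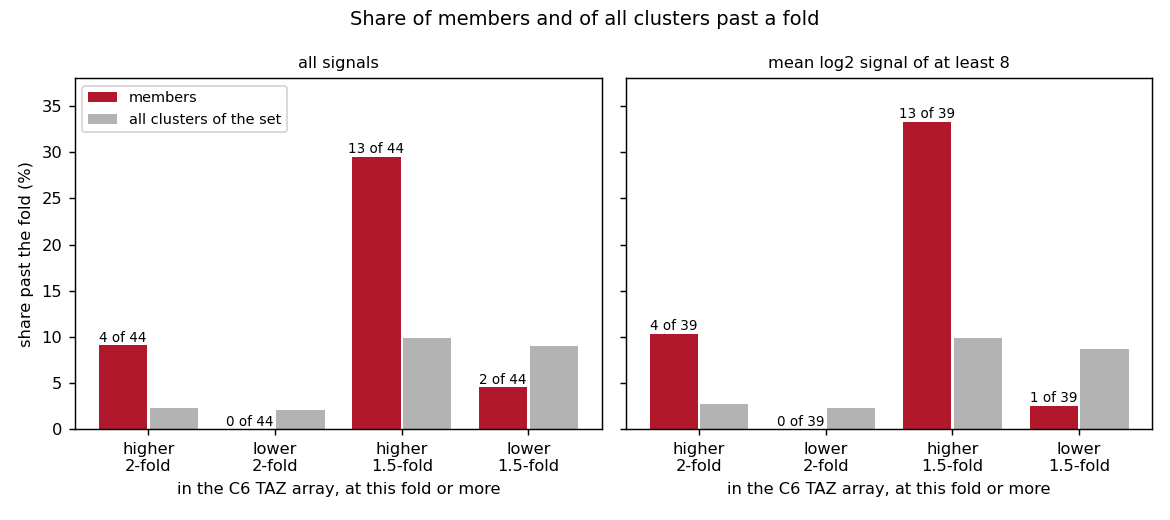
Share in percent (y axis) of the 44 genes (red, with counts) and of all clusters (grey) that were higher or lower in C6 TAZ by at least 2-fold or 1.5-fold (x axis), for all signals (left) and for a mean log2 signal of at least 8 (right). On the left 13 of 44 genes were higher by 1.5-fold, against 9.87% of all clusters, and 2 were lower, against 9.05%.

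The Rag GTPases differed in size and in direction between paralogs. They work as a heterodimer of RagA or RagB with RagC or RagD. Rragd, which encodes RagD, had a log2 signal of 9.69 in C6 TAZ and 7.58 in C6, a difference of 2.11 or 4.32-fold. By upward difference it ranked 35 among the 23188 clusters. Its paralog Rragc, which encodes RagC, had 12.73 in C6 TAZ and 12.08 in C6, a difference of 0.65 or 1.57-fold. The paralogs on the other side of the heterodimer differed in sign. Rragb was higher, with 12.28 in C6 TAZ and 11.69 in C6 (0.59, 1.51-fold). Rraga was lower, with 12.40 in C6 TAZ and 12.77 in C6 (−0.37, 1.29-fold). The difference of Rraga is under 1.5-fold, and by downward difference it ranked 4281 among the 23188 clusters. Slc38a9, a lysosomal amino acid transporter that reports arginine to the Rags, had 10.48 in C6 TAZ and 9.95 in C6, a difference of 0.53. Of these 5 genes, 3 were higher by 1.5-fold, where 9.87% of all clusters were, and the median difference of the 5 was 0.59.

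Folliculin and its partner were both higher. Flcn encodes folliculin, which acts with FNIP1 or FNIP2 as the GTPase-activating protein of RagC and RagD and thereby allows mTORC1 to phosphorylate TFEB. Flcn had a log2 signal of 10.03 in C6 TAZ and 8.92 in C6, a difference of 1.11 or 2.16-fold. Fnip1 had 11.87 in C6 TAZ and 11.16 in C6, a difference of 0.71 or 1.64-fold. The other partner, Fnip2, which the naming rule does not take in, had 11.02 in C6 TAZ and 9.67 in C6, a difference of 1.35 or 2.55-fold. The members of the GTPase-activating pair and its RagD substrate were thus among the genes with the widest gaps, while the Ragulator scaffold under them was not. Its 5 genes, Lamtor1 to Lamtor5, lay between −0.05 and 0.27 with a median of 0.13. None passed 1.5-fold, where 9.87% of all clusters were higher and 9.05% lower by it. Lamtor5 was the highest of them by difference, with 10.35 in C6 TAZ and 10.08 in C6, and Lamtor2 the lowest, with 8.23 in C6 TAZ and 8.28 in C6.

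The transcription factors themselves differed little. Tfeb had a log2 signal of 8.14 in C6 TAZ and 7.87 in C6, a difference of 0.27 or 1.21-fold. Tfe3 had 13.57 in C6 TAZ and 13.59 in C6, a difference of −0.02. Both values lie within the quartiles of all clusters, −0.28 and 0.29. An array of RNA does not measure where these proteins are in the cell or whether they are phosphorylated. Mcoln1, the calcium channel of the lysosomal membrane whose opening activates calcineurin and so dephosphorylates TFEB, was higher, with 13.61 in C6 TAZ and 12.74 in C6 (0.87, 1.83-fold).

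The kinase complex and its brake differed by small amounts. Rptor, the scaffold subunit that binds mTORC1 substrates, had the highest difference of these 5 genes, with 10.19 in C6 TAZ and 9.82 in C6 (0.37). Mtor, the kinase, had the lowest, with 9.32 in C6 TAZ and 9.37 in C6 (−0.05). Rheb, the GTPase that switches the kinase on, and Tsc1 and Tsc2, the complex that switches Rheb off, lay between 0.28 and 0.36. None of the 5 passed 1.5-fold, where 9.87% of all clusters were higher and 9.05% lower by it.

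TFEB and TFE3 bind an E-box with the core CACGTG, so the start sites of the genes were searched for these letters. The sequences are those of the RefSeq promoter table for the GRCr8 assembly, from 250 bases before to 50 bases after the start of a gene, and 33 of the 44 genes have an entry. The core, which reads the same on both strands, was found in 6 of the 33 (18.2%), against 1943 of 27457 genes of the table (7.08%). The 6 are Mcoln1, Fnip1, Atp6v0d1, Rheb, Lamtor1 and Atp6v0e1, and their differences ran from 0.26 in Lamtor1 to 0.87 in Mcoln1. The longer palindrome in which GT precedes and AC follows the core was found in none of the 33, against 77 genes of the table (0.28%). Of the 4 genes that were higher by 2-fold, Flcn and Atp6v0b have an entry and neither window holds the core. A match is a description of the letters and shows no binding. The 27457 genes were not matched to the 33 in expression or base composition, and the 2 shares were not tested against each other. The 27457 genes have 33469 promoters in the table, so some have more than 1, while the 33 genes have 33.

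The sequences that follow run 5′ to 3′ along the gene, from 150 bases before the start through its first 20 bases. They are those of Mcoln1 (GRCr8 chr12:6358108-6358277, plus strand), of Fnip1 (chr10:39068314-39068483, plus strand) and of Atp6v0d1 (chr19:50357229-50357398, minus strand), 3 genes of different roles whose window holds the core, and of Flcn (chr10:45107270-45107439, minus strand), a gene higher by 2-fold whose window lacks it. Capitals mark the core CACGTG.
Mcoln1: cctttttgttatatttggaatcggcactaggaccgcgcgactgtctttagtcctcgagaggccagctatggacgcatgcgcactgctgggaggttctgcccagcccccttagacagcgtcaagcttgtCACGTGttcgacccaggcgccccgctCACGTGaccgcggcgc
Fnip1: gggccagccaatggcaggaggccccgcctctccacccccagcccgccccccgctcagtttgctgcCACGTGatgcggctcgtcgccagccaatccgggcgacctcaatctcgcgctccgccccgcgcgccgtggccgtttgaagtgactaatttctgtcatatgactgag
Atp6v0d1: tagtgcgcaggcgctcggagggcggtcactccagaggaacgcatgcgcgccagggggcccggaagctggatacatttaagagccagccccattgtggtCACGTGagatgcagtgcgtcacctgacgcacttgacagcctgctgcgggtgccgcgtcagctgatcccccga
Flcn: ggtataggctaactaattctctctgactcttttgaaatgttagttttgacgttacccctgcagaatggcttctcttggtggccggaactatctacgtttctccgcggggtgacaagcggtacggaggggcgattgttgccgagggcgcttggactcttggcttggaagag
Mcoln1 holds the core at 2 places, beginning at position −22 and at position 5 from the start, while in Fnip1 it begins at −85 and in Atp6v0d1 at −52. The log2 difference was 0.87 in Mcoln1, 0.71 in Fnip1 and 0.38 in Atp6v0d1, and 1.11 in Flcn without the core.

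Among the 24 genes of the V-ATPase, 18 had a higher and 6 a lower signal in C6 TAZ, against 11432 and 11487 of the 23188 clusters. The median difference of the 24 was 0.33. Of the 24 genes, 5 were dim on both arrays, under 5.88, namely Atp6v1b1, Atp6v1c2, Atp6v1e2, Atp6v1g3 and Atp6v0d2. These are isoforms known from specialised tissues such as kidney, testis and osteoclasts, and their differences, from −0.61 to 0.50, are of the size seen among the nose receptors. In the other 19 genes, 16 were higher in C6 TAZ and the median difference was 0.38.

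In the V1 sector, 11 of 13 genes were higher in C6 TAZ, against 11432 of the 23188 clusters, and 2 of these 11 were dim on both arrays. The median difference of the 13 was 0.36. By 1.5-fold 4 were higher and by 2-fold 1, where 9.87% and 2.34% of all clusters were. Atp6v1c1 encodes subunit C, which clamps V1 onto V0 and leaves when the pump disassembles. Its signal was 13.28 in C6 TAZ and 12.27 in C6, a difference of 1.01 or 2.01-fold, which lies just past the 2-fold threshold. Atp6v1b2, the B subunit of the ATP-hydrolysing head found in most tissues, had 14.19 in C6 TAZ and 13.51 in C6 (0.68, 1.60-fold). Atp6v1d, the shaft of the rotor, had 15.48 in C6 TAZ and 14.85 in C6 (0.63, 1.55-fold). Atp6v1g2, the stalk subunit G of neural tissue, had 9.16 in C6 TAZ and 8.55 in C6 (0.61, 1.53-fold).

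Other subunits of the same sector, which are present in the pump in fixed numbers, differed less. Atp6v1a, the catalytic subunit A that pairs with B in the head, had 13.13 in C6 TAZ and 12.92 in C6, a difference of 0.21. Atp6v1e1, of the peripheral stalks, had 12.41 in C6 TAZ and 12.21 in C6, a difference of 0.20. Atp6v1g1, the G subunit of most tissues, had 13.71 in C6 TAZ and 13.45 in C6, a difference of 0.26. The regulatory subunit Atp6v1h had 11.50 in C6 TAZ and 10.97 in C6 (0.53), and the rotor subunit Atp6v1f had 12.80 in C6 TAZ and 12.44 in C6 (0.36). Among the V1 genes that were not dim, differences thus ran from 0.20 to 1.01. The dim isoforms were the only V1 genes with a lower signal in C6 TAZ, Atp6v1b1 with 4.51 in C6 TAZ and 5.06 in C6 and Atp6v1g3 with 4.35 in C6 TAZ and 4.96 in C6. The other dim isoforms were Atp6v1c2, with 4.82 in C6 TAZ and 4.32 in C6, and Atp6v1e2, with 4.74 in C6 TAZ and 4.72 in C6.

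The V0 sector was divided, with 5 genes higher and 4 lower in C6 TAZ and a median difference of 0.09. Atp6v0b, a proteolipid of the proton-carrying ring, had the widest gap of all V-ATPase genes, with 12.22 in C6 TAZ and 10.82 in C6 (1.40, 2.64-fold). The main proteolipid of the same ring, Atp6v0c, had 14.05 in C6 TAZ and 13.58 in C6 (0.47, 1.39-fold). Atp6v0d1, which joins the ring to the rotor, had 14.11 in C6 TAZ and 13.73 in C6 (0.38). Its osteoclast and macrophage isoform Atp6v0d2 was dim on both arrays, with 4.31 in C6 TAZ and 4.79 in C6.

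Isoforms of the large subunit a, which steers the pump to a given membrane and forms the path of the protons, did not follow each other. Atp6v0a1, the isoform abundant in brain, had 14.30 in C6 TAZ and 14.21 in C6, a difference of 0.09. Atp6v0a2, the isoform of the Golgi and endosomes, was lower, with 11.41 in C6 TAZ and 11.98 in C6 (−0.57, 1.48-fold). Atp6v0a4, known from kidney intercalated cells and the inner ear, was lower too, with 8.93 in C6 TAZ and 9.61 in C6 (−0.68, 1.60-fold), and it was the one gene of the 39 bright members that was lower by 1.5-fold. The markers of intercalated cells were dim on both arrays, as given above. Of the small e subunits, Atp6v0e1 had 14.39 in C6 TAZ and 14.08 in C6 (0.31), and Atp6v0e2 had 10.16 in C6 TAZ and 10.23 in C6 (−0.07).

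Both accessory proteins of the pump were higher in C6 TAZ. Atp6ap1, which encodes the glycoprotein Ac45 that helps to assemble V0, had 16.17 in C6 TAZ and 15.24 in C6, a difference of 0.93 or 1.91-fold. Atp6ap2, the prorenin receptor, which is also an assembly factor of the pump, had 13.95 in C6 TAZ and 13.29 in C6, a difference of 0.66 or 1.58-fold. Atp6ap1 is the next protein-coding gene to tafazzin on chromosome X in the RefSeq gene order, so other genes nearby were read too. Farther along on the side of Atp6ap1, Fam50a and Plxna3 had differences of 0.64 and 0.45, and on the other side Dnase1l1, Rpl10, Emd and Flna had differences of 0.49, 0.12, −0.08 and −0.48. Tafazzin between them had −0.50. The part of the edited locus in the value of Atp6ap1 was not tested.

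**Figure D3:**
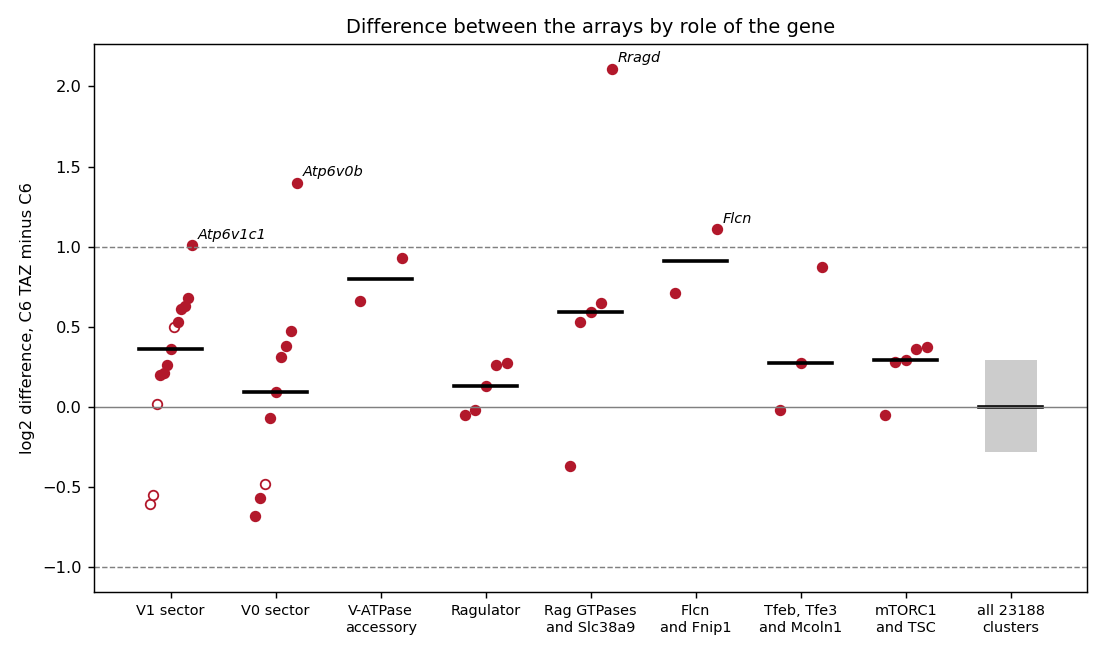
Log2 difference, C6 TAZ minus C6 (y axis), of each gene by role (x axis), with open circles for genes under 5.88 on both arrays, a black line at each group's median, dashed lines at 2-fold and, at the right, the quartiles of all 23188 clusters in grey. Medians run from 0.09 in the V0 sector and 0.13 in Ragulator to 0.80 and 0.91 in the 2-gene groups of accessory proteins and of Flcn with Fnip1, and 4 genes lie past the upper dashed line.

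**Figure D4:**
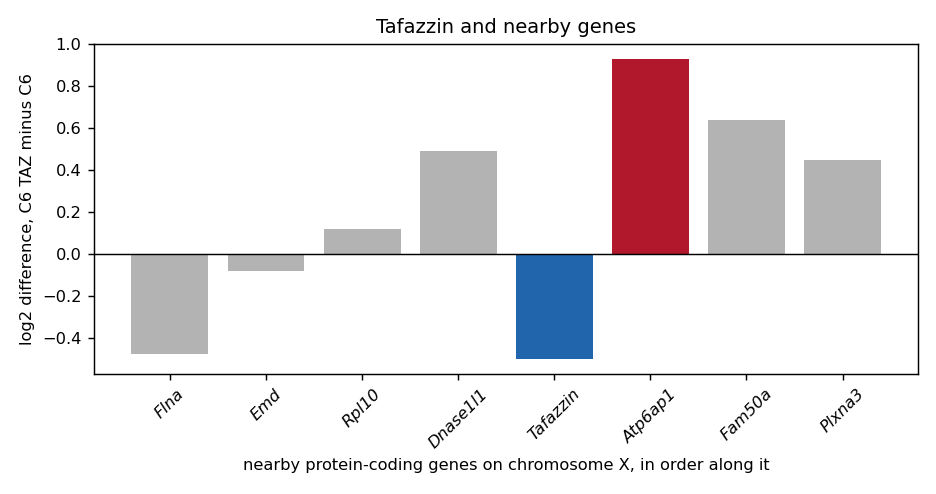
Log2 difference, C6 TAZ minus C6 (y axis), of tafazzin (blue), of Atp6ap1 (red) and of nearby protein-coding genes in their order along chromosome X (x axis). Atp6ap1 has the largest difference of the 8 genes plotted, 0.93, and tafazzin the most negative, −0.50.

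Genes that work with these complexes were read from 6 lists. Of 16 genes that assemble the V-ATPase or work beside it, 2 were higher by 2-fold and 4 by 1.5-fold, where 2.34% and 9.87% of all clusters were. None was lower by either, where 2.1% and 9.05% of all clusters were, and the median difference was 0.31. Clcn7, the chloride-proton exchanger of the lysosome, had 11.59 in C6 TAZ and 10.37 in C6 (1.22), and its partner Ostm1 had 13.27 in C6 TAZ and 12.39 in C6 (0.88). Dmxl2, part of the complex that puts V1 back on V0, had 9.50 in C6 TAZ and 8.49 in C6 (1.01). Tmem199, an assembly factor of V0, had 10.97 in C6 TAZ and 10.27 in C6 (0.70). At a signal of at least 6, the gene farthest the other way was Tbc1d24, with 9.13 in C6 TAZ and 9.32 in C6 (−0.19).

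Of 17 genes reported here that pass amino acid levels to the Rags, 5 were higher by 1.5-fold, where 9.87% of all clusters were. None was lower by it, where 9.05% of all clusters were, and the median was 0.19. The GATOR2 subunits Wdr24 (8.03 in C6 TAZ and 7.04 in C6, 0.99) and Mios (7.75 in C6 TAZ and 7.08 in C6, 0.67) were among them, with the sestrin Sesn3 (12.31 in C6 TAZ and 11.71 in C6, 0.60). Kptn, a subunit of KICSTOR, had 7.71 in C6 TAZ and 7.37 in C6 (0.34). The other 2 at 1.5-fold, Rnf152 and Castor1, were under 5.88 on both arrays. Sec13, which GATOR2 shares with the nuclear pore and the COPII coat, went the other way, with 12.86 in C6 TAZ and 13.16 in C6 (−0.30).

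Partners and substrates of mTOR showed no common direction in sign, with 10 of 17 higher and 7 lower, against 11432 and 11487 of the 23188 clusters. Their median was 0.04. By 2-fold 2 were higher and by 1.5-fold 3, where 2.34% and 9.87% of all clusters were. None was lower by 2-fold, where 2.1% of all clusters were. Rhebl1, a relative of Rheb, had 8.40 in C6 TAZ and 7.00 in C6 (1.40), Prr5, a subunit of mTORC2, had 13.63 in C6 TAZ and 12.55 in C6 (1.08), and Ulk1, the kinase that starts autophagy, had 7.99 in C6 TAZ and 7.02 in C6 (0.97). Eif4ebp1, the translation repressor that mTORC1 inactivates, had 14.52 in C6 TAZ and 15.14 in C6 (−0.62). It was the one gene of the 17 lower by 1.5-fold, where 9.05% of all clusters were.

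Of 16 regulators of TFEB and channels of the lysosome, 3 were higher by 2-fold and 4 by 1.5-fold, where 2.34% and 9.87% of all clusters were. The median was −0.03. The 4 were Fnip2, given above, Pikfyve, the kinase that makes the lipid which opens the channels (11.74 in C6 TAZ and 10.66 in C6, 1.08), Mcoln3, a paralog of Mcoln1 (10.14 in C6 TAZ and 9.13 in C6, 1.01), and the cation channel Tpcn2 (10.30 in C6 TAZ and 9.67 in C6, 0.63). The subunits of the calcineurin phosphatase stayed between −0.14 and 0.14, with Ppp3cb (12.98 in C6 TAZ and 13.12 in C6) the farthest downward. BORC is the complex that loads the GTPase Arl8 onto lysosomes and so moves them outward. Of the 10 genes of BORC and Arl8 7 were lower, against 11487 of the 23188 clusters, and the median of −0.15 lies within the quartiles of all clusters. All 7 encode subunits of BORC, and its subunit Snapin had a difference of 0.00. The differences of the 7 were small, and none was lower by 1.5-fold, where 9.05% of all clusters were. The farthest BORC subunit was Bloc1s1, with 10.31 in C6 TAZ and 10.75 in C6 (−0.44). The 2 higher genes were those of the GTPase, Arl8a with 12.23 in C6 TAZ and 11.17 in C6 (1.06) and Arl8b with 14.93 and 14.54 (0.39).

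All 25 of a list of other genes of the lysosome and of autophagy known as TFEB targets were higher in C6 TAZ, against 11432 of the 23188 clusters. By 2-fold 13 were higher and by 1.5-fold 20, where 2.34% and 9.87% of all clusters were. The median of the list was 1.03, beside 0.30 for the pump and its control. The hydrolases Tpp1 (1.81), Ctsa (1.65), Naglu (1.61) and Gla (1.49) had the largest differences and the membrane protein Cd63 (0.25) the smallest. This list was drawn up with the levels of lysosome genes on these arrays known, so its counts give no separate support. It shares Clcn7 with the first list.

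**Figure D5:**
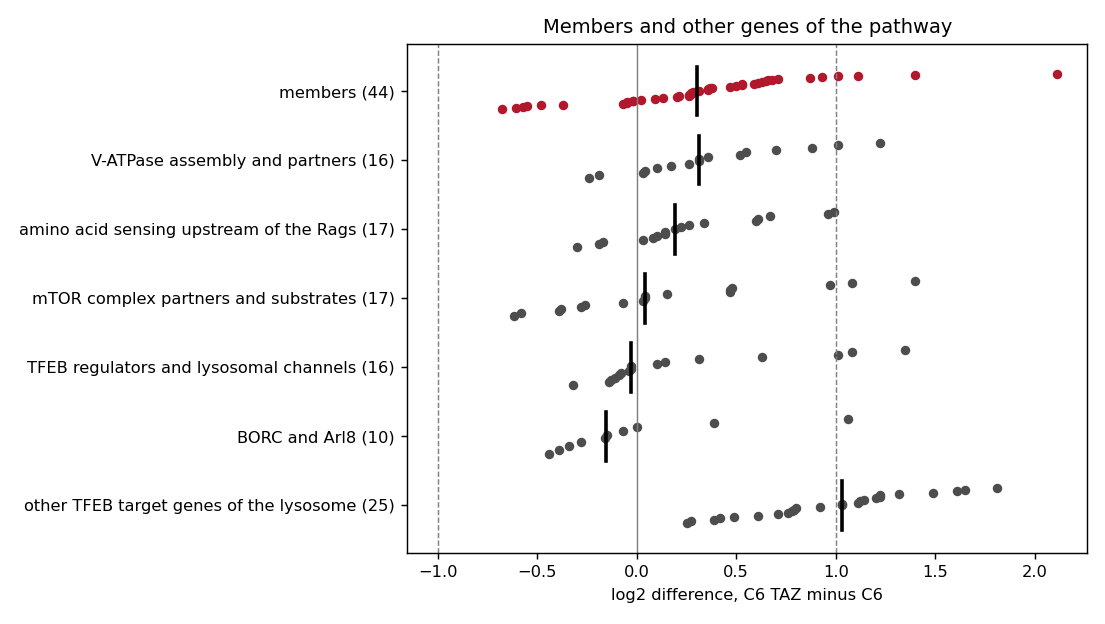
Log2 difference, C6 TAZ minus C6 (x axis), of the 44 genes (red) and of the genes of 6 further lists (grey, y axis), with a black bar at each median and dashed lines at 2-fold. The medians are 0.30 for the 44 genes and run from −0.15 for BORC and Arl8 to 1.03 for the other TFEB target genes, whose 25 points all lie right of 0.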

How the data were processed

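Total RNA of C6 TAZ and C6 cells, each pooled from 3 cultures, was hybridised to 1 Clariom S rat array per condition. Log2 signals of transcript clusters were deposited by the authors, and their processing notes point to Affymetrix Expression Console. The clusters are annotated on the rn6 build. How probes were summarized and arrays normalized is stated in none of the sources read. The authors' own comparison, a signed linear fold, stands beside the signals and was not used. The log2 difference, C6 TAZ minus C6, was rounded to 2 decimals and counted as past 2-fold, the threshold of the study's results, or 1.5-fold, that of its methods, at that fold or more. With 1 array per condition no test, p-value or SD between samples can be given, and the number of arrays limits the precision. Counting was tested on simulated data.

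Symbols were matched ignoring case, which brought in 1 gene (Rragb). Of the clusters, 21502 carry 1 symbol and 1673 several, and genes were read from clusters with 1 alone, while shares of all clusters count every one. List genes with several clusters were averaged, and 4 list genes were read under an older symbol (Castor1, Castor2, Kics2 and Lars1). Seh1l and Bmt2 are not analysed here, and some genes that the lists or the gene order would take in are not reported here. All 44 genes were found in a RefSeq table of GRCr8, which was used for names, gene order and promoter sequences and not for coordinates of the arrays. Named are all genes past 1.5-fold whose brighter log2 signal is 6 or more, the farthest gene each way in each role, all paralog sets, and of each further list up to 4 genes with the largest difference and the largest the other way. The 44 genes and all lists were chosen with earlier results of these data known. Python 3.11.15, pandas 2.3.3, numpy 2.4.6 and matplotlib 3.10.9 were used. Alternatives tried were the scaling of the arrays, the names of the columns, a minimum signal, the threshold, shared clusters and the V-ATPase alone.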

Additional observations from a re-analysis of the deposited data

How the results depend on the processing

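The workbook names, which the study's text and its RT-qPCR bear out, set the directions. Were the names of the other deposited form used, 0 of the 44 genes would be higher in C6 TAZ by 2-fold and 4 lower, 2 higher by 1.5-fold and 13 lower, the median difference −0.30, and Rragd, Atp6v0b, Flcn and Atp6v1c1 would have −2.11, −1.40, −1.11 and −1.01. Under the workbook names, the counts and the median were recomputed with quantile normalization, centring on ribosomal proteins, 2 minimum signals and shared clusters. Centring on the median of all clusters, which is 0.00, and other ways of joining clusters, with 1 cluster per gene, could change nothing and are no checks. The number lower by 1.5-fold was 1 with the arrays centred on ribosomal proteins and with clusters averaging 6 or 8 and above alone, since Atp6v1g3 is dim and lies near the threshold. Quantile normalization gave 5 genes higher by 2-fold and 12 by 1.5-fold. The shares of all clusters were not recomputed under it or under ribosomal centring, so these counts have no share beside them. The 1.5-fold threshold gave 13 higher and 2 lower, where 9.87% and 9.05% of all clusters were. The V-ATPase alone gave 2 of 24 higher by 2-fold and 7 by 1.5-fold, where 2.34% and 9.87% of all clusters were. Of 88 values of single genes under quantile normalization and ribosomal centring, 85 kept their sign or were 0 and 3 changed it, those of Tfe3 and Lamtor4, which lie at −0.02, and the largest move was 0.07. No replicate could be left out, with 1 array per condition, and no detection call was used, so that the signal of the nose receptors is the only guide to background. No paired analysis was possible because each condition has 1 array of pooled RNA.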

Other observations

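Tcirg1, which encodes the a3 isoform of the V-ATPase known from lysosomes and osteoclasts, escapes the naming rule because its symbol does not begin with Atp6v. It had a log2 signal of 8.01 in C6 TAZ and 7.51 in C6, a difference of 0.50 or 1.41-fold. Of the 4 isoforms of subunit a, a3 was thus higher and a2 and a4 lower in C6 TAZ, while a1 differed by 0.09 alone. A second cluster names Rragb together with an upper-case spelling of the same symbol, and it had 12.27 in C6 TAZ and 11.70 in C6 (0.57), beside 0.59 for the cluster of Rragb alone.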
